A study of Drosophila melanogaster with 4 samples.

Results

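The loci described here are 2 stretches of Drosophila melanogaster chromosome arm 3L named for extra macrochaetae (emc) and hairy (h), in a map of TATA-binding protein (TBP) in embryos. TBP peaks were assigned to them by position on FlyBase release 5. A peak belonged to the emc window if it overlapped 3L:740000-760000, and to the h window if it overlapped 3L:8655000-8685000. The emc window held 7 peaks and the h window held 2, so the members were 9 of the 1436 peaks on 3L and of the 7769 in the whole list. Both loci were selected on the scores, widths and positions in this same list, and those values are therefore given as a description, with no test.

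The series compared 2 libraries of chromatin immunoprecipitated with a rabbit polyclonal serum against fly TBP with 2 libraries of input DNA. By their labels, all 4 came from embryos of 0 to 8 h of strain Exd-GFP-13T, of unknown sex and with the genotype w; PBac{y[+]-attP-3B}VK00033. They carried a genomic extradenticle (exd) transgene in which GFP takes the place of the stop codon, and both groups share it. The extraction text conflicts with those labels: it describes an 8 to 16 h collection of y; bw cn sp flies, cross-linked in 1.8% formaldehyde for 15 min. A single peak list was analysed for all 4 libraries, so read depth is unknown and no value below has a replicate error.

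TBP is the subunit of the general factor TFIID that contacts the TATA element, and it takes part in assembling RNA polymerase II at promoters. Both emc and h encode helix-loop-helix (HLH) proteins that restrain proneural basic HLH activators, such as achaete. The emc product lacks the basic region that contacts DNA; it pairs with the activators and keeps them from binding, as the Id proteins of vertebrates do. The h product keeps its basic region and represses target genes together with the corepressor Groucho. It is also a primary pair-rule protein, and its early stripes are driven by separate enhancers next to the gene.

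The emc window held the highest-scoring TBP peak of the whole list, and 6 low-scoring peaks beside it. The score is a number deposited for each peak with no stated scale, so ratios of scores below describe the deposited numbers and not amounts of bound TBP. The strongest peak, 3L:747913-750579, scored 400.63 and was 2667 bp wide. On the left of it were 3L:738977-740032 (score 22.72, width 1056 bp), 3L:743361-743687 (score 7.1, width 327 bp), 3L:745036-745247 (score 11.79, width 212 bp) and 3L:747632-747857 (score 10.15, width 226 bp). On the right were 3L:750678-751080 (score 10.69, width 403 bp) and 3L:751483-751741 (score 12.08, width 259 bp). The window thus had a strong centre and weak sides, with no peak of intermediate score. The strongest peak made up 84.3% of the summed score of the window and 51.8% of its summed peak width.

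The h window held a pair of peaks of moderate score and nothing else in the list. The first, 3L:8665250-8666113, scored 34.74 and was 864 bp wide. The second, 3L:8668379-8669351, scored 51.71 and was 973 bp wide. The pair was alike in width, the second score was 1.49 times the first, and 2265 bp without a listed peak lay between them. The emc maximum was 7.75 times the h maximum in score and 2.74 times as wide.

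**Figure D1:**
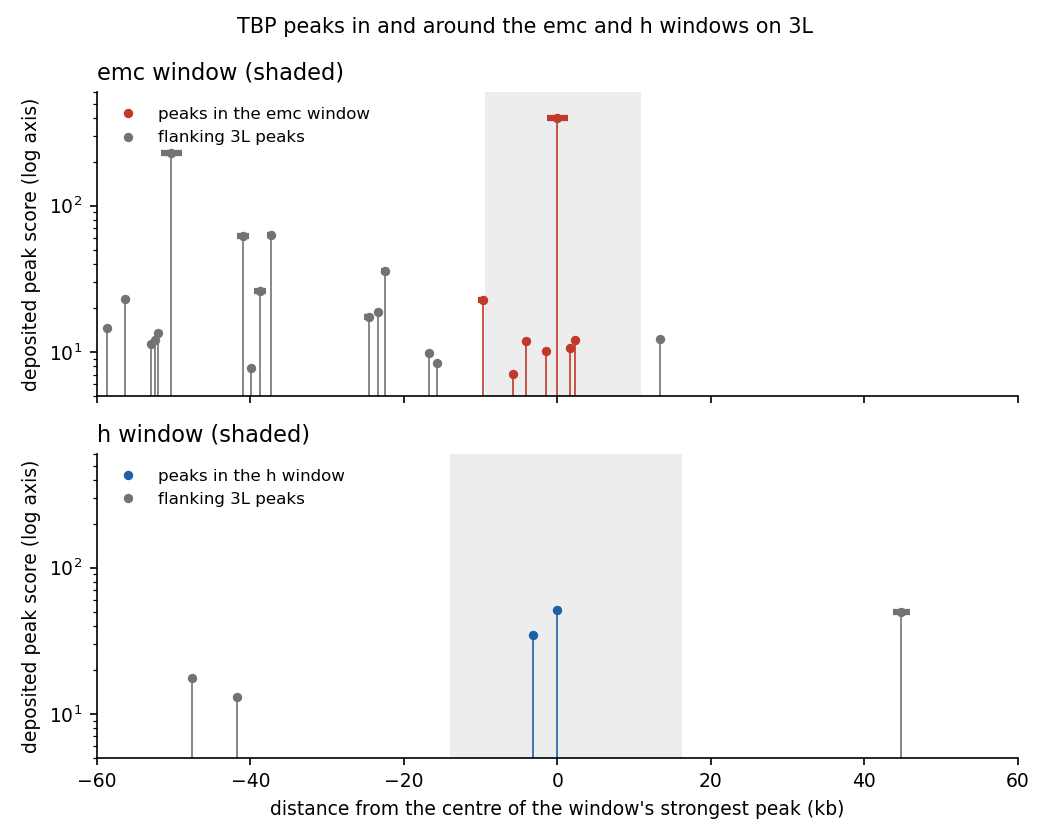
Deposited score (log axis) of each TBP peak against its distance in kb from the centre of the strongest peak of the emc window (upper panel) and of the h window (lower panel); points mark peak centres, thick bars peak widths, grey points flanking 3L peaks, and shading the window. The emc window shows a peak of 400.63 among 6 peaks of 7.1 to 22.72, and the h window shows a pair of 34.74 and 51.71 with no listed peak for 37906 bp on the left and 43231 bp on the right.

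Among 3L peaks the members fell at the top, the middle and the bottom of the range of scores. Of the 9 members, 1 reached the 90th percentile of 3L scores (86.15), the strongest emc peak, against 10.2% of all 3L peaks. Below the 3L median score of 27.66 were 6 of the 9, all in the emc window, against 50.0% of all 3L peaks. The h pair lay between that median and the upper quartile of 56.85. By width, 1 of the 9 reached the 90th percentile of 3L (1826.5 bp), again the strongest emc peak, against 10.0% of 3L peaks. The emc window also held the 5 members narrower than the 3L median of 726.5 bp, which 50.0% of 3L peaks were. These shares restate values on which the loci were selected, and nothing is read from them.

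The strongest emc peak was set further apart in score than in width. The next peak on 3L by score, 3L:22400193-22401696, had 296.55, so the first score was 1.35 times the second, a difference of 104.08. By width the emc peak ranked only 43rd on 3L, between 3L:4624932-4627624 (2693 bp, score 89.78) and 3L:16104880-16107533 (2654 bp, score 89.39). Those neighbours in width scored far less. The 42 wider peaks of 3L scored from 39.2 to 230.14, with a median of 86.285. Set against the 50 3L peaks nearest to it in width (2312 to 3020 bp), its score was 5.09 times their median of 78.73, and the highest of them had 230.14. As the emc peak had the highest score of the list, the 42 and the 50 could only score lower. Per kb of width its score was 150.2, higher than that of 99.2% of 3L peaks, so it was not the first by that measure.

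The 6 other emc peaks were weak on 3L, and most were also narrow. Their 3L ranks by score ran from 848 for 3L:738977-740032 to 1428 for 3L:743361-743687, out of 1436. That leftmost peak entered the window by 33 bp, or 3.12% of its width, and was the only one of the 6 that reached 500 bp. At like width the 6 did not behave as a group. The peaks at 745036, 747632 and 751483 scored 1.18, 1.03 and 1.16 times the median of the 50 3L peaks nearest in width. Those at 738977, 743361 and 750678 scored 0.608, 0.53 and 0.789 times it, and none of the 50 peaks nearest in width to 3L:743361-743687 scored lower than it did.

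Each h peak stood close to the typical 3L peak of its width. The second h peak ranked 399th of 1436 by score, level with 5 other 3L peaks of the same score, and 71.9% of 3L peaks scored lower. Its score was 1.13 times the median of the 50 3L peaks nearest in width, of which 66% scored lower. The first h peak ranked 599th, with 57.9% of 3L peaks scoring lower, and had 0.907 times the median at like width, with 40% lower. In width the second h peak exceeded 62.9% of 3L peaks and the first 57.2%. The second peak's 51.71 was higher than the 27.08 and 24.88 of the peaks next to it in width, at 332107 (973 bp) and 20510245 (970 bp) on 3L.

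**Figure D2:**
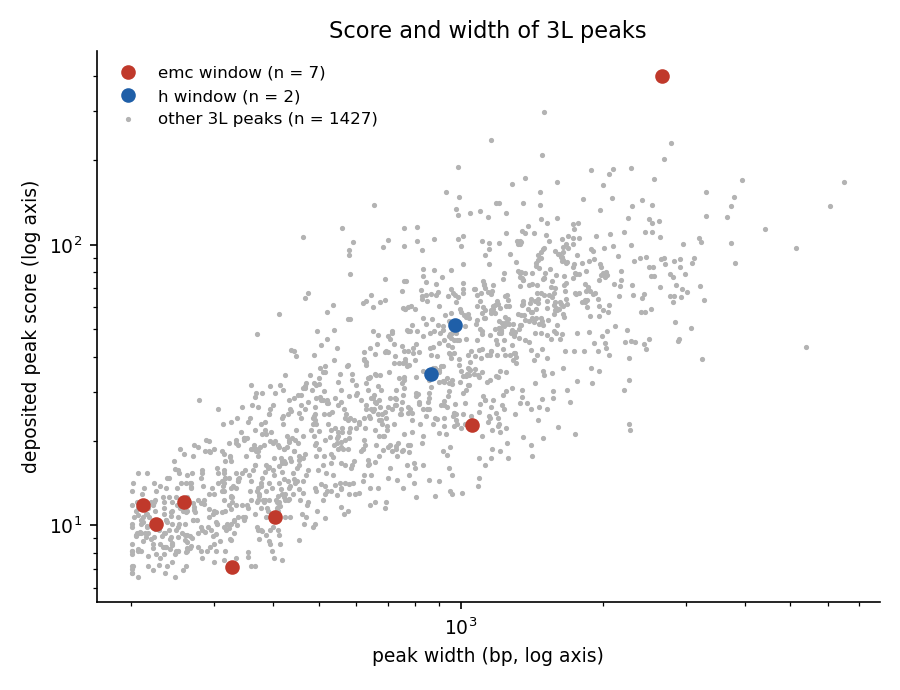
Deposited score against width in bp (both log axes) for the 7 peaks of the emc window, the 2 of the h window and the other 1427 peaks of 3L. The strongest emc peak (400.63, 2667 bp) lies above every 3L peak, including the wider ones, while the h pair lies inside the cloud. The emc peak of 1056 bp lies low in the cloud for its width, with 6% of the 50 peaks nearest in width scoring lower. The other 5 emc peaks lie at the lower left of the cloud.

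The strongest emc peak was bordered closely on both sides. Only 55 bp separated it from 3L:747632-747857 and 98 bp from 3L:750678-751080, and the next peak, 3L:751483-751741, began 402 bp further on. Of the 1436 3L peaks, 6 (0.418%) had a neighbour within 100 bp on each side. Among the 20 strongest 3L peaks it was the only one with a neighbour within 100 bp on either side. Whether these flanking calls are separate sites or edges of one broad signal was not tested, since the list holds no signal profile.

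The strongest emc peak had no other sizeable peak near it, and this set it apart in value from the typical strong 3L peak with neighbours. Within 10 kb of its edges lay 6 other peaks, of which the best scored 22.72, so its own score was 17.6 times that of its best neighbour. Of the 146 3L peaks at or above the 90th percentile of score, 127 had another peak within 10 kb, with a median ratio of 2.02, and the emc peak ranked 2nd of the 127. The largest ratio, 21.4, belonged to 3L:22400193-22401696, whose 2 neighbours reached 13.84. Among the 20 strongest, the ratio had a median of 3.74 over the 19 with a neighbour. The distance of 10 kb was set after the positions had been seen.

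**Figure D3:**
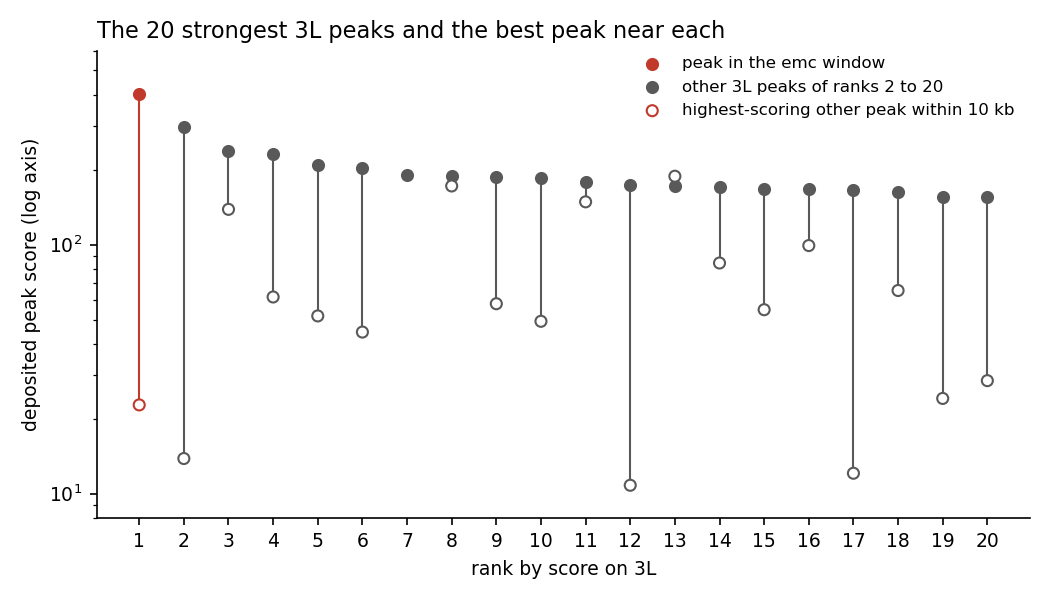
Deposited score (log axis) of the 20 strongest 3L peaks in rank order (filled points, the emc peak in red) and of the highest-scoring other peak within 10 kb of each (open points). The emc peak, at 400.63 over 22.72, shows a wide separation that the 3L peaks of ranks 2, 12 and 17 also show, whereas ranks 8 and 13 lie near each other and have like scores.

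Outside the emc window, peaks went on to the left and stopped on the right. The 5 nearest on the left, from 3L:733426-733662 (score 8.36) out to 3L:724122-725280 (17.45), all lay within 24545 bp of the strongest peak's centre, and the highest of them, 3L:726300-727339, scored 36.04. On the right a single peak, 3L:762361-762784 (score 12.29), followed 10619 bp after the last member. It was followed by 53883 bp without a listed peak, up to 3L:816668-817313 (15.08). The first strong peak on that side, 3L:832273-833755, scored 94.09 and had its centre 83768 bp away. Linked across gaps of at most 10 kb, the emc peak belonged to a run of 12 peaks from 724122 to 751741, of which 10 scored below the 3L median and the second highest had 36.04. On 3L 98.2% of the 496 such runs had fewer peaks. The run had 7 peaks when the limit was 5 kb and 44 when it was 20 kb.

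The h pair stood alone in a wide stretch. The gap before it, 37906 bp, was longer than 88.4% of the gaps between 3L peaks, and the gap after it, 43231 bp, was longer than 90.1%. The median gap on 3L was 4904 bp. On the left the nearest peaks were 3L:8627044-8627343 (score 12.95) and 3L:8621045-8621498 (17.68), both weaker than either h peak. The next 3 on that side scored 12.37, 41.04 and 8.61, so 3L:8596686-8597478, at 41.04, scored higher than the first h peak. On the right, 3L:8712583-8714834 was a broad peak of 2252 bp with a score of 49.7, close to that of the second h peak. The other flanking peaks on the right scored 10.96, 18.36, 18.3 and 90.27, the last with its centre 122770 bp from the second h peak. Pairs as such were frequent: with gaps of at most 10 kb, 96 of 496 runs on 3L (19.4%) were pairs, whatever their flanking gaps. Pairs as isolated as the h pair were fewer: 19 of the 96, the h pair included, had at least 37906 bp free on each side.

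Set against equal stretches of 3L, the emc window was crowded and its score lay in a single peak. Arm 3L was divided from its first peak into 1220 tiles of the window's length, 20001 bp, and the tiles that overlap the window were kept. The emc window had 7 peaks against a median of 1 per tile, and 98.9% of tiles had fewer. Of the 1220 tiles, 568 (46.6%) held no peak. These empty tiles lower the tile medians given here and raise the shares of tiles below the window. Its summed score was 475.16 against a tile median of 14.46, and 2 tiles, neither of which held the strongest emc peak, exceeded it, the highest at 496.09. Peaks covered 20.6% of the window against a tile median of 1.57%, more than in 93.4% of tiles. Of the 13 tiles with at least 7 peaks, all were more fully covered (21.1 to 55.9%). The strongest peak held 84.3% of the summed score in the emc window, against 27.9 to 67.2% in these 13. The limit of 7 peaks counts the leftmost emc peak, which entered the window by 33 bp. The tile that held the strongest emc peak had 6 peaks, with a summed score of 457.63, and so was not among the 13.

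The h window lay above the middle of 3L tiles, many of which were empty. Its 2 peaks compare with a median of 1 in 813 tiles of 30001 bp, of which 56.2% had fewer, 15.6% the same number and 28.2% more. No peak lay in 304 of the 813 tiles (37.4%). Peaks covered 6.12% of the h window, against a tile median of 2.32%. Its summed score of 86.45, against a tile median of 33.5, was higher than that of 65.6% of tiles. The higher of its scores, 51.71, was close to the median of 53.23 for the higher score in the 127 tiles with 2 peaks. The share of the sum in the stronger peak was 59.8% in the h window, against a median of 66.7% in those tiles, so the h pair was somewhat more even.

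**Figure D4:**
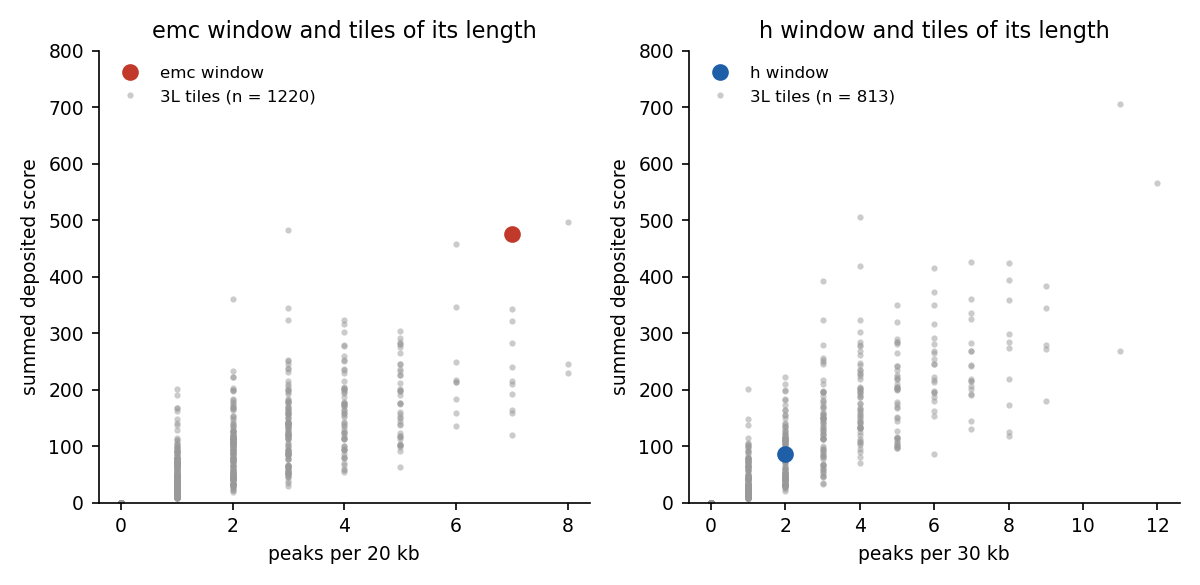
Summed deposited score against the number of peaks for the emc window and 1220 tiles of 3L of its length (left), and for the h window and 813 tiles of 3L of its length (right). The emc window, at 7 peaks and 475.16, lies near the upper right edge of its tiles, and the h window, at 2 peaks and 86.45, lies within its tiles.

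The peaks could not be placed on gene models, because the gene table used here is of release 6 and the peaks are on release 5. In that table both genes lie on 3L, and h carries the symbol hry with h as a synonym. The genes in order before emc are lncRNA:CR43785, hng3 and the initiator methionine tRNA gene tRNA:iMet-CAT-1-3, and the annotated span of hng3 contains that of emc. After emc come the isoleucine tRNA genes tRNA:Ile-TAT-1-1 and tRNA:Ile-TAT-1-2, then CG13898. Whether a peak in the emc window belongs to emc, to hng3 or to a tRNA gene cannot be told apart here, and neither window was tied to a start site. Before h, in order of start, are CG13305, Pex7, a peroxisomal import receptor gene, and Arr2, an arrestin gene of photoreceptors. After it come lncRNA:CR44526, SrpRbeta, for a subunit of the signal recognition particle receptor, and CG32022.

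A peak missing from the list is one that did not pass the authors' calling, with a threshold not given in the sources used here. The emc count rests on weak calls: 1 of its 7 peaks scored above the median of the whole list, and merging peaks within 1 kb left 4.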

How the data were processed

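The 4 libraries (2 TBP ChIP, 2 input) are represented by a single peak list. Positions are on FlyBase release 5, per the file headers, and the source field names MACS. The submitters' processing notes name the build BDGP5 and the tools MACS2, BWA and CASAVA (versions 1.7.0.2 and 1.7.0.3), with no role. The authors deposited a score for each peak and no scale for it; the sources used here give neither the threshold nor whether replicates were pooled. The list holds no values per library, so depth is unknown and the ChIP and input libraries could not be compared here.

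Members were peaks with any overlap with the windows; the windows, the members and all measures were chosen with earlier results of these data known. The peaks named in the text are the members, the 5 peaks on each side of each window, the 3L peaks next in rank to each window's strongest and widest, and 3 genes on each side of emc and h. Other 3L peaks named as strongest, or as near a strong peak, were chosen after their values were seen. Ranks, gaps, the 50 peaks nearest in width, and tiles of equal length were computed in Python 3.11.15 (numpy 2.4.6, pandas 2.3.3, scipy 1.17.1, matplotlib 3.10.9) and tested on simulated data. Percentiles count peaks strictly below a value. Gaps count the bases between peaks. The RefSeq gene table (release 6) served for names and gene order alone. The planned comparisons of promoter and protein sequences and of a list of HLH genes were not run, because no sequence table was used here.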

Additional observations from a re-analysis of the deposited data

How the results depend on the processing

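No paired analysis was possible because all libraries share the same list; leaving out a replicate was likewise impossible. Of 52 alternatives (48 planned, and 4 from limits of 5 and 20 kb for linking peaks in each window, added after the data were seen), 36 stayed within 1.5 times the reported count or ratio, or within the exact 95% binomial interval of the reported share, and 16 moved. Several of the 36 could hardly have moved. The strongest emc peak had the highest score of the list, so its percentile by score had to stay near the top. All peaks of like width had to score lower than it did. Both h peaks scored above the list median, so their count and cover were fixed under that limit. With peaks above the median score of the list, the emc window held 1 peak and 13.3% was covered, more than in 90.05% of tiles, while the h window was more covered than 74.7% of tiles. Among 3L peaks above that median, the greatest emc width exceeded 93.6% of peaks, the highest h score exceeded 40.1%, and the greatest h width 30.2%. The score share drops by construction, since only weaker peaks are removed. Merging peaks within 1 kb left 4 peaks in the emc window, and put the highest h score above 64.6% and the greatest h width above 48.5% of merged peaks. Ranked by score per bp, the strongest emc peak exceeded 99.2%. With 10 kb added on each side, the emc window was more covered than 90.3% of tiles. The extended h window was 3.67% covered, more than 49.0% of tiles, because no further peak lay in the added sequence. The emc run had 7 peaks with a limit of 5 kb and 44 with 20 kb. The emc count of 1 follows from the removal of its 6 other peaks, which scored 7.1 to 22.72, and only the strongest was left to cover the window. The emc count of 4 follows from gaps of 55, 98 and 402 bp, all shorter than 1 kb. The cause was not tested for the remaining values. With depth unknown, weak calls and empty stretches may be the least certain, which was not tested.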

Other observations

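The emc peak lies at the right end of a long stretch rich in TBP peaks. With gaps of at most 20 kb, the run that holds it reached from 579348 to 762784 on 3L, 183437 bp with 44 peaks, and no other run on 3L under that limit had as many. The median score in it was 14.4, lower than the 27.66 of all 3L peaks. The run also held 3L:697554-700340, the 4th strongest 3L peak (score 230.14, width 2787 bp), so 2 of the 6 3L peaks scoring at least 200 were in it. The limits of 20 kb and 200 were chosen after the positions and scores had been seen, and the run depends on the limit: it had 12 peaks at 10 kb.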
